A study of Mus musculus with 14 samples.

Results

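The postsynaptic scaffold genes examined here encode the proteins that hold glutamate receptors and their signalling enzymes in place beneath the excitatory synapse. DLG proteins bind receptor tails through PDZ domains and carry an SH3 and a guanylate kinase domain near the C terminus; DLGAP1 binds that guanylate kinase domain, SHANK proteins bind DLGAP1, and HOMER1 links SHANK to metabotropic glutamate receptors. Many of these genes are alternatively spliced in neurons, and NOVA proteins, neuronal splicing factors that bind YCAY in RNA (TCAC plus TCAT plus CCAC plus CCAT, read as DNA), are known regulators of synaptic transcripts.

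The 9 genes were taken by symbol, namely 4 DLG genes (Dlg1, Dlg2, Dlg3 and Dlg4), 3 SHANK genes (Shank1, Shank2 and Shank3), Homer1 and Dlgap1. The gene tables of the RNA-seq held 8 of these 9 members among 19215 genes, and Shank1 RNA was not analysed here. The cassette exon tables held 18 events in 6 of the members among 13189 events, found by the Entrez identifier in the event name. All 9 members had CLIP reads.

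RNA-seq was from whole spinal cord (WSC) of B6/SJL mice carrying Tg(SOD1)2Gur/J, a human wild-type SOD1 transgene, at 12 weeks of age. The 2 libraries were 1 male and 1 female, so sex and animal cannot be told apart between them. NOVA CLIP, in which proteins are crosslinked to RNA in the tissue and the bound RNA is purified with an antibody and sequenced, was from C57BL/6 mice at 3 months of age. MN (motoneuron) libraries came from 2 hemizygous lines, Chat:GFP-Nova #6 and #17, which carry GFP-tagged NOVA2 under the Chat promoter of a bacterial artificial chromosome. Each of the 4 MN libraries of a line was a pool of spinal cords precipitated with anti-GFP antibodies. The 4 WSC CLIP libraries were from wild type mice and were precipitated with an anti-NOVA serum, which takes NOVA of all NOVA-expressing cells. The cell type, the tagged protein, the antibody and the pooling therefore change together between MN and WSC, and their effects cannot be told apart. The sequencer differed in part too, as only MN replicates 3 and 4 of each line were run on that of WSC. Median read length was 31 to 52 nt in MN and 44 to 46 nt in WSC libraries. Per the study, CLIP signal also depends on transcript abundance, so a whole-gene difference does not measure binding alone. In these bulk samples, fewer cells of a type and less RNA per cell cannot be told apart either.

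Depth differed widely between assays. The RNA libraries held 72006019 (male) and 65625173 (female) reads on genes. CLIP reads sense to protein-coding genes numbered 50622 to 688359 in the MN libraries and 1814204 to 5050143 in the WSC libraries. The cell type labels were checked against marker genes. In MN CLIP, Chat, Slc5a7 and Chodl, the 3 of 6 motoneuron markers tested, were higher than in WSC, and all 4 inhibitory interneuron markers were lower (for example Slc6a5, the neuronal glycine transporter, by a log2 fold change of −4.35). In the RNA libraries the 6 motoneuron markers summed to 84.0 RPKM in the male and 116 RPKM in the female. Astrocyte markers (835 and 862 RPKM) and oligodendrocyte markers (6981 and 7505 RPKM) were also present in these whole cord libraries, and their part in the member levels was not tested.

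Dlg4, which encodes PSD-95, had the highest RNA level of the members in WSC, at 86.2 RPKM (reads per kilobase of exon, scaled to library size) in the male and 76.3 RPKM in the female library, or 81.2 ± 6.98 RPKM (mean ± SD, n = 2). Dlg1 (SAP97) followed at 30.5 ± 2.46 RPKM and Dlg2 (PSD-93) at 27.3 ± 1.07 RPKM. Dlg3 (SAP102) was lower, at 12.2 ± 0.51 RPKM. The other 4 members lay below the DLG genes. Dlgap1 was at 8.65 ± 0.36 RPKM, Shank3 at 6.80 ± 0.78 RPKM, Homer1 at 5.82 ± 0.13 RPKM and Shank2 at 3.85 ± 1.08 RPKM. The order of the 8 genes was the same in both libraries. The closest neighbours were Dlg1 (28.8 RPKM in its lower library) and Dlg2 (28.1 RPKM in its higher library), and Shank3 (6.25 RPKM) and Homer1 (5.91 RPKM). With 1 library per sex and 2 in all, no test of these levels was made.

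**Figure D1:**
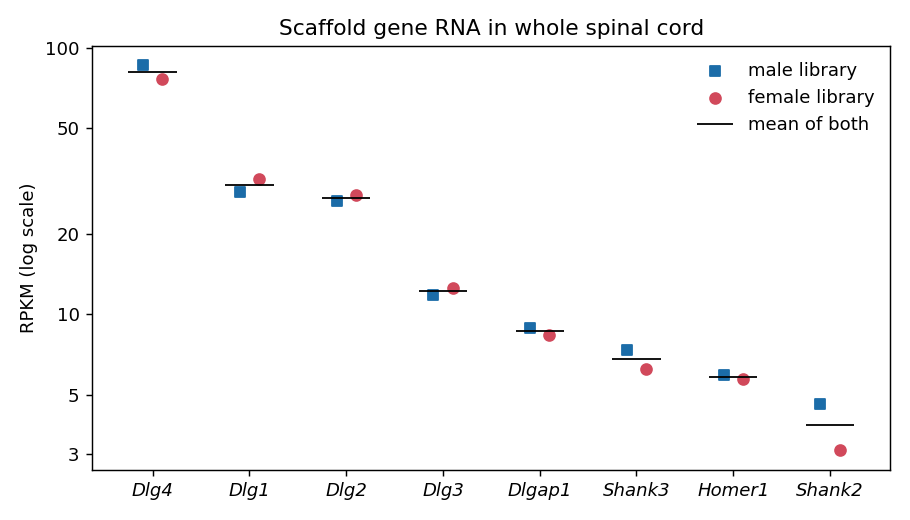
RNA level of the 8 scaffold genes with gene-table values in whole spinal cord, in RPKM on a log axis; squares are the male library, circles the female library and lines the mean of both. Dlg4 is at 76.3 to 86.2 RPKM and Shank2, the lowest, at 3.09 to 4.62 RPKM.

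Differences of the members between the 2 RNA libraries were about as small as those of other genes. None of the 8 differed by more than 2-fold, against 98 of the 11940 genes with a mean of at least 1 RPKM (0.821%). Shank2 was the member furthest apart, at 4.62 RPKM in the male and 3.09 RPKM in the female library (log2 ratio 0.57), and the only one past 1.4-fold, against 5.82% of the 11940 genes. These ratios compare 2 libraries and have no replicate check.

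Other proteins of the excitatory postsynaptic density spanned the same levels as the members. The median over the 23 of 26 listed genes with values was 10.8 RPKM, beside 10.4 RPKM for the 8 members and 3.46 RPKM for all genes. Cript, a small protein that binds the PSD-95 protein, was highest at 70.8 ± 6.92 RPKM, and Homer2 was lowest at 2.82 RPKM. Among 22 glutamate receptor subunits and partners, with a median of 13.0 RPKM, Cacng7, an AMPA receptor auxiliary subunit, was highest at 76.3 ± 0.76 RPKM and Grin2a, an NMDA receptor subunit, was lowest at 2.12 ± 0.30 RPKM.

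Cassette exon inclusion was computed from junction reads, as the mean of the reads on both inclusion junctions against the reads on the skipping junction. All 18 member events had at least 10 junction reads in each library. They lay in Dlg1 (5), Dlg2 (4), Dlg3 (2), Dlg4 (3), Dlgap1 (2) and Shank3 (2), and the tables held none for Shank2 or Homer1. Every one of these exons is coding in the GENCODE annotation of mm9. Of the 18 events, 8 had a mean inclusion between 10% and 90%, compared with 27.4% of the 9396 covered events. Of these 8, 7 had a length divisible by 3, compared with 60.4% of all such covered exons. On the deposited counts, which add exon body reads and do not average the 2 inclusion junctions, these 8 values were higher, and 4 of them by over 1.5 times: the mean was 38.6% for the Dlg1 99-nt, 45.8% for the Dlg1 36-nt, 55.9% for the Dlg2 42-nt (scored after the 100-nt exon) and 25.5% for the Dlg3 54-nt exon. The member exons were short. Of the 18 events, 10 were of exons of at most 60 nt, compared with 18.7% of all covered events.

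**Figure D2:**
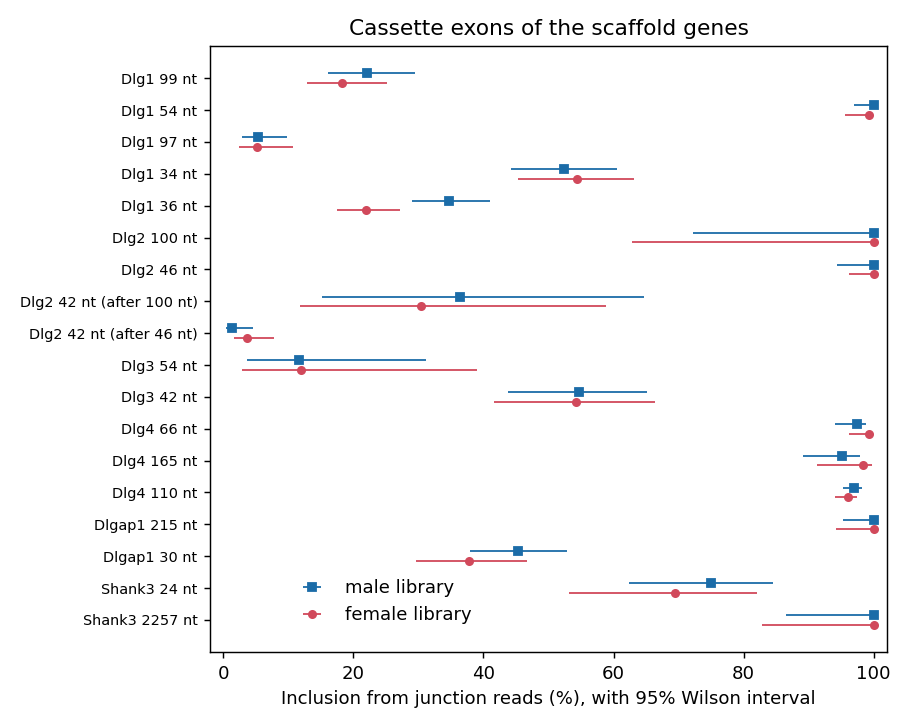
Inclusion of the 18 cassette exon events of the scaffold genes in the male (squares) and female (circles) library, in percent of junction reads; bars are 95% Wilson intervals, which cover counting error only. The Dlg1 36-nt exon is at 34.8% in the male and 22.0% in the female library, and the Dlg2 42-nt exon appears as 2 events because it can follow the 100-nt or the 46-nt exon.

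Dlg3 and Dlgap1 held events near the middle of the range. The Dlg3 42-nt exon showed 54.7% inclusion in the male (43.8 to 65.2, 95% Wilson interval) and 54.2% (41.7 to 66.3) in the female. The Dlgap1 30-nt exon, at chr17:71067536-71067565, was included at 45.3% (37.9 to 52.9) and 37.8% (29.6 to 46.7). The Shank3 24-nt microexon, at chr15:89368446-89368469, was included at 75.0% (62.3 to 84.5) and 69.4% (53.1 to 82.0). For each of these the intervals of both libraries overlapped, as the plot of inclusion by library shows. The Dlg3 54-nt exon, at chrX:97966646-97966699, rested on 24 and 14 junction reads and gave 11.6% (3.68 to 31.2) and 12.0% (2.82 to 39.0).

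The remaining exons of Dlg4, Dlgap1 and Shank3 were scored as almost always included. The Dlg4 110-nt exon, exon 20 of 22 in the longest annotated coding transcript and at chr11:69857160-69857269, was included at 97.01% (95.2 to 98.2) and 96.1% (94.0 to 97.5). Its length is not divisible by 3, so skipping it shifts the reading frame, and its skipping junction held 16 of 1054 junction reads in the male and 20 of 1002 in the female library. The other 2 Dlg4 events share the start of their exon (66 and 165 nt) and its upstream junction, and were scored at 95.1% to 99.3%. Their downstream junctions held 183 and 178 reads for the 66-nt form and 5 and 9 for the 165-nt form. The score of the 165-nt form thus rests on the shared junction, and that form was the rarer one. No skipping read was found for the Dlgap1 215-nt exon (0 of 154 and 0 of 123 junction reads) or the Shank3 2257-nt exon (0 of 49 and 0 of 37), whose Wilson lower limits were 94.1% to 95.2% and 82.8% to 86.4%. Of the Dlgap1 reads, only 7 and 5 joined the upstream exon of this event to the 215-nt exon, and 147 and 118 were on the downstream junction. Few reads thus bear on skipping from that upstream exon, and the Dlgap1 limits overstate the evidence.

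Between the male and the female library, Fisher's exact test on the deposited inclusion and skipping counts called 400 of 9396 covered events (4.26%) at a false discovery rate of 0.1, and 2 of the 18 member events. Both were in Dlg1. The 36-nt exon was included at 34.8% (29.0 to 41.1) in the male and 22.0% (17.5 to 27.2) in the female library (adjusted p = 0.00331, Fisher's exact test). It held 86 and 77 inclusion junction reads and 153 skipping reads in the male, and 50 and 73 with 218 in the female library. On junction reads alone it was still called (adjusted p = 0.00981), as were 310 of the 9396 events (3.3%). The 97-nt exon was called only with the reads on the exon body (adjusted p = 0.0590), which gave 31.4% in the male and 46.1% in the female library. On junction reads it was at 5.41% and 5.13% and was not called. This test compares 2 libraries, and no replicate of either sex was present.

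The 4 Dlg2 events and 3 of the 5 Dlg1 events lie in the stretch between the SH3 and the guanylate kinase domain, where both genes carry related exons. These exons and the 42-nt exon of Dlg3 are shown with 15 bases of intron on each side, so that their sequences can be compared between the genes; capitals mark the exon, read 5′ to 3′ on the plus strand of mm9.
Dlg1 97-nt exon, chr16:31846923-31847019: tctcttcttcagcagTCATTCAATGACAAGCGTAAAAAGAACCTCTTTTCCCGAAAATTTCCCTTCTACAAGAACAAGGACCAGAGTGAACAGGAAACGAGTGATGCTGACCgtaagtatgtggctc
Dlg2 100-nt exon, chr7:99565734-99565833: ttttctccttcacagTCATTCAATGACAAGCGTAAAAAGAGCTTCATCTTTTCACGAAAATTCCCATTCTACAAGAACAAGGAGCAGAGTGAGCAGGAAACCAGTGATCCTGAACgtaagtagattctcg
Dlg1 34-nt exon, chr16:31847722-31847755: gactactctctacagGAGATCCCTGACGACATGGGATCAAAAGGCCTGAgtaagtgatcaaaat
Dlg2 46-nt exon, chr7:99566598-99566643: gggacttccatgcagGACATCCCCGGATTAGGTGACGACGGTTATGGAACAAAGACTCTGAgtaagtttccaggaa
Dlg1 42-nt exon, chr16:31853929-31853970: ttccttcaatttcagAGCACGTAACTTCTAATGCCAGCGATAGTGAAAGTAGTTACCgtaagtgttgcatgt
Dlg2 42-nt exon, chr7:99569142-99569183: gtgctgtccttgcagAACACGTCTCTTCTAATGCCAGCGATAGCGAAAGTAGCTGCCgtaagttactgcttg
Dlg3 42-nt exon, chrX:98006841-98006882: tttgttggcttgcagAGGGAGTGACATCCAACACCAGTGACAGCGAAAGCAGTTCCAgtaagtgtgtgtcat
Dlg1 36-nt exon, chr16:31854739-31854774: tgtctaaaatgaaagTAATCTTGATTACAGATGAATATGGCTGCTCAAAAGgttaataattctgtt

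The Dlg1 97-nt and Dlg2 100-nt exons were identical at 88 of 100 aligned positions (88.0%). The 42-nt exon of Dlg1 and that of Dlg2 were identical at 36 of 42 bases (85.7%), and the Dlg3 42-nt exon matched that of Dlg1 at 28 of 42 bases (66.7%). The Dlg1 34-nt and Dlg2 46-nt exons matched at 29 of 48 aligned positions (60.4%), a value not far above that of unrelated pairs such as Dlg2 46-nt and Dlg3 54-nt (53.6%).

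In both genes the exon upstream of this stretch was joined mostly to the shorter exon, of 34-nt length in Dlg1 and 46-nt length in Dlg2. In Dlg1, 166 reads in the male and 111 in the female library joined the upstream exon to the 34-nt exon, and 3 and 2 joined it to the 97-nt exon, so that the 34-nt exon took 98.2% (94.9 to 99.4) and 98.2% (93.8 to 99.5). In Dlg2, 130 and 193 reads joined the upstream exon to the 46-nt exon and 16 and 13 joined it to the 100-nt exon, or 89.0% (82.9 to 93.1) and 93.7% (89.5 to 96.3) for the 46-nt exon. The Dlg2 100-nt and 46-nt exons both read as 100% included in the tables, because each is scored against a junction that bypasses both of them, on which no read fell.

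The Dlg1 97-nt exon gave unequal junction counts. It was joined to the 34-nt exon by 16 and 10 reads and directly to the 42-nt exon by 68 and 53 reads, against the 3 and 2 reads from the upstream exon of this event. The 98.2% above thus covers joins from that upstream exon only and does not measure use of the 97-nt exon. Of the reads leaving the 97-nt exon, 81.0% (71.3 to 87.9) and 84.1% (73.2 to 91.1) went to the 42-nt exon. The 34-nt exon was joined to the 42-nt exon by 134 and 116 reads. The tables score the 34-nt exon at 52.4% (44.3 to 60.5) and 54.3% (45.3 to 63.1), but with the junction from the 97-nt to the 42-nt exon as its skipping junction, so this value and the 98.2% above rest on different junctions.

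For the Dlg1 42-nt exon, no event that skips it was analysed here. In Dlg2 the 42-nt exon was joined to the exon after it by 4 and 7 reads, while 161 and 156 reads joined the 100-nt or 46-nt exon to that exon directly, or 2.42% (0.947 to 6.07) and 4.29% (2.10 to 8.60) for the 42-nt exon. In Dlg3 the 42-nt exon was at 54.7% and 54.2%, as the mean of both inclusion junctions, and neither interval overlapped these Dlg2 intervals. The tables score the Dlg2 exon in 2 events, after the 46-nt and after the 100-nt exon, and count the same 4 and 7 downstream reads in both. After the 46-nt exon this gave 1.28% (0.352 to 4.55) and 3.58% (1.60 to 7.83), although 0 male and 4 female reads joined the 46-nt to the 42-nt exon. After the rarer 100-nt exon it gave 36.4% (15.2 to 64.6) and 30.4% (11.8 to 58.9), with 4 male and 0 female reads joining the 100-nt to the 42-nt exon and 7 and 8 skipping it. The intervals after the 100-nt exon overlapped those of Dlg3. No test between genes was made, since the exons belong to the same 2 libraries.

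Upstream in Dlg1, between the L27 and first PDZ domains, the 99-nt exon at chr16:31771843-31771941 was included at 22.1% (16.1 to 29.5) and 18.2% (12.9 to 25.2). The 54-nt exon, at chr16:31781868-31781921, was included at 100% (96.9 to 100) and 99.2% (95.6 to 99.9).

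The intron after the Dlg3 42-nt exon was dense in the NOVA motif. Its first 200 bases, chrX:98006883-98007082, held 13 YCAY on the sense strand, counting overlapping matches, and are shown with the motifs in capitals.
Dlg3 intron after the 42-nt exon, plus strand: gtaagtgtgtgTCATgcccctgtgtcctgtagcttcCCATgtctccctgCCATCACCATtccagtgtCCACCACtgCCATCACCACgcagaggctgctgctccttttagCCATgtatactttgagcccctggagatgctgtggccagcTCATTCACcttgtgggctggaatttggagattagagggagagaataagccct

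Of the 13111 cassette exons placed on mm9, 21 (0.160%) had 13 or more YCAY in the first 200 bases of the intron after them. The median was 3, and 94.0% had at least 1. The corresponding windows of the other member exons of at most 60 nt held 2 to 7. In NOVA CLIP, 6 WSC reads and 1 MN read fell in this Dlg3 window, so the depth does not allow a comparison of binding there between MN and WSC. The motif count is a description of the sequence and not of a site in use.

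NOVA CLIP reads over whole genes were compared between MN and WSC with edgeR's quasi-likelihood test over 4597 genes, at a false discovery rate of 0.01. All 9 members passed the filter on low counts. In MN, 3 members were called higher (Dlg1, Dlg2 and Dlgap1) and 2 lower (Dlg4 and Shank2), while Dlg3, Shank1, Shank3 and Homer1 were not called. Of all genes tested, 27.6% were called higher and 29.1% lower. The median log2 fold change was −0.02 over the members and −0.02 over all genes.

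**Figure D3:**
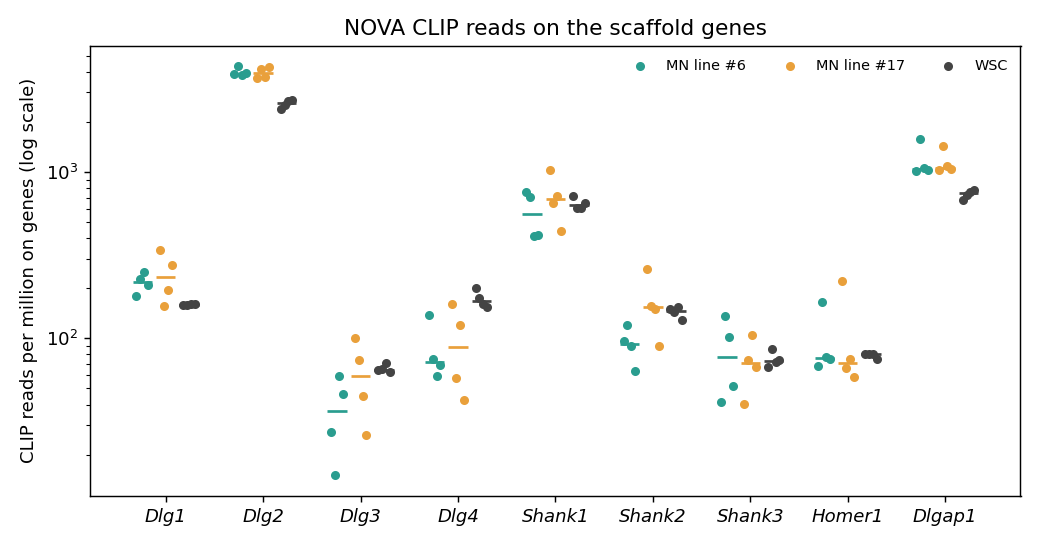
NOVA CLIP reads on the 9 scaffold genes in each of 12 libraries, in CPM (reads scaled to library size) on a log axis; points are libraries and lines the median of each group of 4. For Dlg2 and Dlgap1 every MN library lies above every WSC library, and for the other genes the groups overlap.

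Dlg4 had the largest difference of the members. Its level was 137, 75.3, 59.0 and 69.3 CPM (reads on the gene scaled to the library's reads on all genes) in line #6, 160.5, 58.0, 120.2 and 42.5 CPM in line #17, and 202, 175, 160.1 and 155 CPM in WSC. 1 MN library of line #17 reached the WSC range and the other 7 lay below it. The log2 fold change was −1.40 (SE 0.19, adjusted p = 4.61e-07, edgeR). It was −1.24 in line #6 alone and −1.56 in line #17 alone. With 1 library left out it ran from −1.50 to −1.05, the latter without line #17 replicate 4 (adjusted p = 9.76e-05, edgeR). The MN libraries held only 5 to 29 Dlg4 reads each, and the WSC libraries 284 to 922.

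Dlg2 and Dlgap1 were higher in MN in every library. Dlg2 was at 3885, 4305, 3813 and 3910 CPM in line #6, 3690, 4165, 3727 and 4266 CPM in line #17, and 2376, 2511, 2685 and 2707 CPM in WSC (log2 fold change 0.63, SE 0.09, adjusted p = 1.85e-06, edgeR). Dlgap1 was at 1016, 1580, 1050 and 1022 CPM in line #6, 1023, 1424, 1082 and 1035 CPM in line #17, and 680, 729, 759 and 783 CPM in WSC (log2 fold change 0.63, SE 0.11, adjusted p = 2.68e-05, edgeR). Of all 4597 genes, 13.2% had every MN library above every WSC library and 15.9% the reverse.

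Dlg1 was at 178, 226, 252 and 208 CPM in line #6, 341, 157, 195 and 274 CPM in line #17, and 158, 158, 159.9 and 160.2 CPM in WSC (log2 fold change 0.58, SE 0.11, adjusted p = 8.46e-05, edgeR). 1 MN library lay just below the WSC libraries and the others above them. Shank2 was at 96.1, 120.4, 90.05 and 63.5 CPM in line #6, 261, 157, 150.3 and 89.4 CPM in line #17, and 149, 144, 155 and 129 CPM in WSC (log2 fold change −0.52, SE 0.16, adjusted p = 0.00699, edgeR). Line #6 lay wholly below WSC, while line #17 spanned it. The Shank2 call was lost when any of 5 of the 12 libraries was left out. Without the deepest line #17 library, replicate 4, its difference was −0.24 (adjusted p = 0.188, edgeR). Without line #6 replicate 3 or 4 the adjusted p was 0.0199 or 0.0262, and without WSC replicate 1 or 3 it was 0.0112 or 0.0162 (edgeR). Dlg1 narrowly lost its call without line #17 replicate 4 (0.43, adjusted p = 0.0107, edgeR).

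The uncalled members had wide MN ranges. Dlg3 was at 15.1 to 100.3 CPM in MN and 62.7 to 70.6 CPM in WSC, and its log2 fold change of −0.63 (SE 0.21) missed the threshold (adjusted p = 0.0113, edgeR). Without line #17 replicate 4 the Dlg3 value was −0.21 (adjusted p = 0.429, edgeR), whereas it was called lower without line #6 replicate 3 or line #17 replicate 1 or 2 (adjusted p = 0.00846, 0.00332 and 0.00354, edgeR). Shank1 was at 413 to 1023 CPM in MN and 604 to 716 CPM in WSC (−0.21, SE 0.14, adjusted p = 0.205, edgeR). In the 4 MN libraries run on the same sequencer as WSC, Shank1 (−0.54, adjusted p = 0.000123, edgeR) and Dlg3 (−0.77, adjusted p = 0.00187, edgeR) were called lower, against 20.9% of the 9050 genes tested there. Shank3 ran from 40.1 to 135 CPM in MN and from 67.6 to 86.2 CPM in WSC (log2 fold change 0.02, SE 0.17). Homer1 ran from 58.6 to 221 CPM in MN and from 75.2 to 81.0 CPM in WSC (−0.02, SE 0.18).

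Lines #6 and #17 were not distinguished. No gene was called between them by edgeR, against 217 of 4597 genes with an unadjusted p under 0.05. Differences of the members ran from −0.45 (SE 0.30) for Shank2 to 0.32 (SE 0.38) for Dlg4 as line #6 minus line #17, on the log2 scale. Without line #17 replicate 4, Shank2 was at −1.03 (adjusted p = 0.153, edgeR) and Shank1 moved from −0.24 to −0.58 (adjusted p = 0.259, edgeR).

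Where in the genes the reads lay differed between MN and WSC. Over all genes, 53.7% to 66.7% of the reads of an MN library and 34.2% to 39.4% of those of a WSC library lay in introns. For 7 of the 9 members the intronic share in every MN library was above that in every WSC library, as it was for 35.2% of the 3901 tested genes with reads in all libraries. The margin was narrow for Dlg1, whose lowest MN share was 66.7%, from 15 reads, against a highest WSC share of 66.4%. It was narrow for Dlg4 too, at 8.33%, from 12 reads, against 8.08%. In Dlg2 the share was 92.6% to 96.5% in MN and 82.8% to 85.7% in WSC. In Dlgap1 it was 82.4% to 94.6% in MN and 72.2% to 75.6% in WSC. In Shank2 it was 61.5% to 100% in MN and 34.3% to 45.8% in WSC. The groups overlapped for Shank3 and Homer1.

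**Figure D4:**
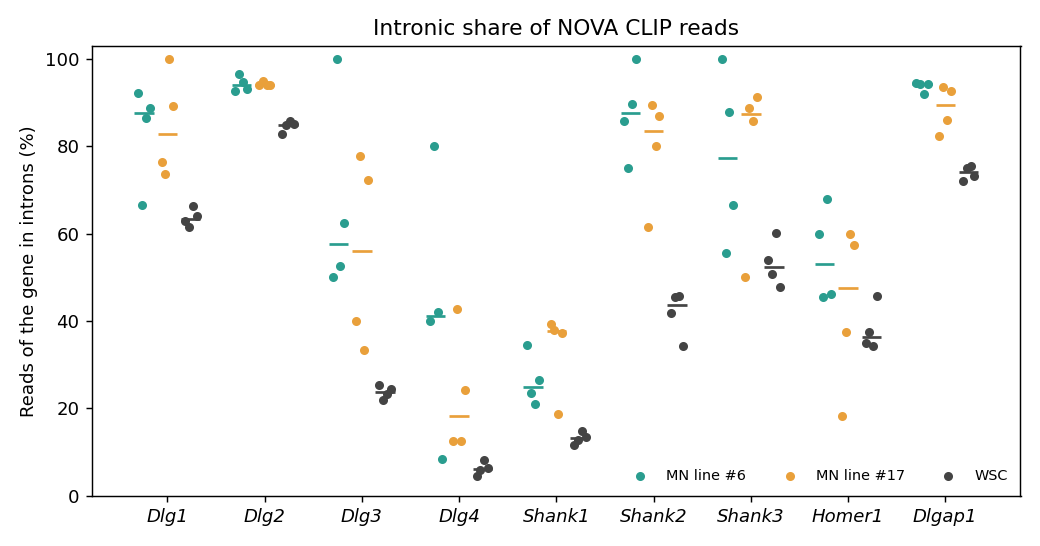
Share of the NOVA CLIP reads of each scaffold gene that lies in introns, in percent, in each of 12 libraries; points are libraries and lines the median of each group of 4. In Shank2 the MN libraries are at 61.5% to 100% and the WSC libraries at 34.3% to 45.8%; MN points of Dlg3, Dlg4, Shank3 and Homer1 rest on as few as 1 to 5 reads.

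Counting exons and introns separately changed the calls. On intronic reads alone, 7 members could be tested and none was called, against 12.7% of 2765 genes called higher and 15.1% lower; Dlg1 was at a log2 fold change of 0.16 (adjusted p = 0.2999, edgeR), Dlg2 at −0.06 (adjusted p = 0.554, edgeR) and Dlgap1 at 0.08 (adjusted p = 0.542, edgeR). On exonic reads alone, 5 members could be tested. Dlg2 was at 0.00 (SE 0.10) and Dlgap1 at −0.45 (adjusted p = 0.0156, edgeR), while Shank2 (−1.87, SE 0.33, adjusted p = 4e-05, edgeR) and Dlg4 (−1.07, SE 0.22, adjusted p = 0.000244, edgeR) were called lower, as were 24.2% of 2272 genes. Each of these tests scaled reads to the library's own intronic or exonic total, unlike the whole-gene CPM. Their values are therefore relative to the same class of reads in other genes, and the intronic share itself was higher in MN. On that scale, the higher counts of Dlg1, Dlg2 and Dlgap1 in MN were not found within introns or, where tested, within exons. The lower counts of Dlg4 and Shank2 were found in exons, and Dlg4 introns held too few reads to be tested.

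Within exons, most reads lay in coding sequence or in the 3′ untranslated region. In WSC, 65.1% of 2571 Dlg4 reads were in coding sequence and 25.1% in the 3′ untranslated region, and in MN 32.7% and 33.7% of 98 reads. Shank1 held 49.9% of 9434 reads in coding sequence and 36.8% in the 3′ untranslated region in WSC, and 33.4% and 34.9% of 788 reads in MN. In Shank2, 49.2% of 2187 WSC reads and 12.0% of 158 MN reads were in the 3′ untranslated region. These shares pool libraries.

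**Figure D5:**
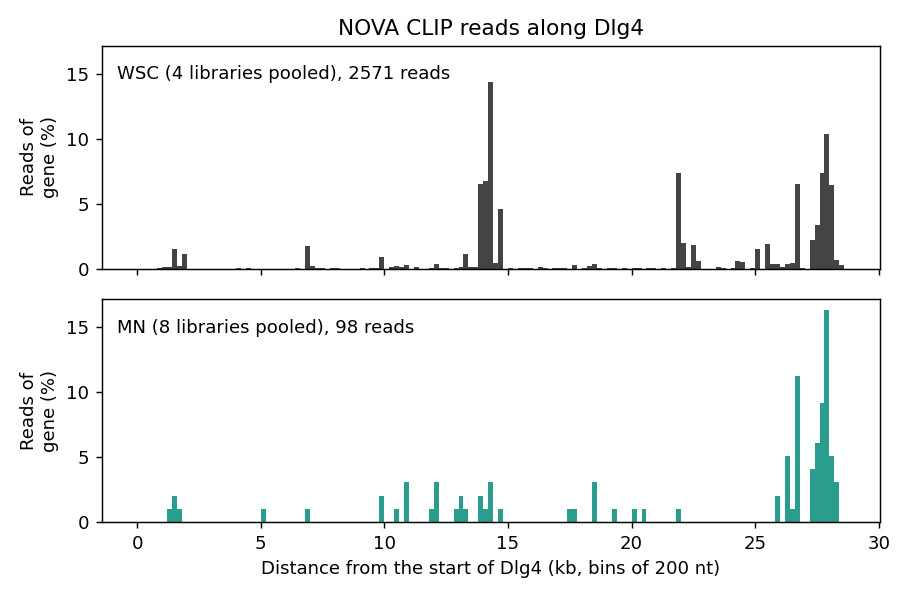
NOVA CLIP reads along Dlg4 in 200-nt bins, as percent of all reads of the gene, by distance from the gene's start in kb; the upper panel pools the 4 WSC libraries (2571 reads) and the lower panel the 8 MN libraries (98 reads). The cluster near the middle of the gene is tall in WSC and low in MN, and the cluster at the 3′ end is present in both.

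The 100-nt windows with the most WSC CLIP reads, among those wholly coding or wholly intronic, are shown for 4 members. Those of the other members, not shown, held from 2 YCAY (Homer1, as many in 44.3% of its windows) to 6 (Dlg2, 1.04%). They were chosen on WSC reads alone, which favours WSC, so their shares are no test of MN against WSC. Capitals mark YCAY on the sense strand, overlaps included, and all windows are on the plus strand of mm9.
Dlg4 coding window, chr11:69844887-69844986: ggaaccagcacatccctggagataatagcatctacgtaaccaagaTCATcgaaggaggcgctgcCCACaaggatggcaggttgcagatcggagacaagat
Shank1 coding window, chr7:51607123-51607222: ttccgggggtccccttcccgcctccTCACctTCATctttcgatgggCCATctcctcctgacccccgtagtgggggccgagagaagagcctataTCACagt
Shank3 coding window, chr15:89378954-89379053: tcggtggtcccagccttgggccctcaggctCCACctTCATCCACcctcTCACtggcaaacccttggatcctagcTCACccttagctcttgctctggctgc
Dlgap1 intron window, chr17:71078813-71078912: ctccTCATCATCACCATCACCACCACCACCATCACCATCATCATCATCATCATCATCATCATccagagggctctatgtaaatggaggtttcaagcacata

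The Dlg4 coding window held 14.3% of WSC reads of the gene, with 40 to 125 reads in each library, and 3.06% of MN reads, which were 3 reads from 2 libraries. It held 2 YCAY, and 43.8% of the coding or intronic 100-nt windows of Dlg4 held at least as many. The Shank1 coding window was alike in both groups. It held 11.6% of WSC reads (161 to 347 per library) and 10.03% of MN reads, with 2 to 30 reads in each of the 8 MN libraries. It held 4 YCAY, as did or exceeded 18.3% of Shank1 windows. The Shank3 coding window, within the 2257-nt exon, held 15.5% of WSC reads and 5.08% of MN reads, the latter being 6 reads, and had 5 YCAY, a number reached by 3.39% of Shank3 windows. The Dlgap1 intronic window held 19 YCAY, a number that only this window reached (0.0120% of 8358 Dlgap1 windows). These YCAY lie in a run of CAT and CAC repeats, and many of them overlap. The window held 1.78% of WSC reads and 1.18% of MN reads. Its 20 MN reads came from 4 of 8 libraries, 10 of them from line #6 replicate 2.

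Near the cassette exons themselves NOVA CLIP reads were few. Within an exon and 500 nt of intron on each side, the 8 MN libraries together held 0 to 17 reads per member exon and the 4 WSC libraries 0 to 248. The most in MN was at the Dlg4 110-nt exon (17 MN and 194 WSC reads), and the most in WSC at the Shank3 2257-nt exon (14 MN and 248 WSC reads). Over the 12 libraries no member window passed the filter on low counts, and 48 of all windows did. With MN limited to the 4 libraries run on the same sequencer as WSC, 393 windows passed, and 2 of them were of members. Relative to the reads of the gene, the Shank3 2257-nt exon was lower in MN (log2 fold change −1.20, SE 0.46, adjusted p = 0.0370, edgeR, false discovery rate of 0.1), as were 17% of the 393 windows. This rests on 0 to 5 reads in each of those MN libraries and 28 to 120 in each WSC library. Introns held 84.7% of the pooled Shank3 reads of all 8 MN libraries and 53.9% of those in WSC. The window is mostly exon, so its value cannot be told apart from that shift over the whole gene, whose part was not tested. The Dlg4 110-nt exon was at 0.91 (SE 0.53, adjusted p = 0.179, edgeR), on 0 to 4 MN reads per library, and was not called. For the other member exons a difference could not be tested at this depth.

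Other excitatory postsynaptic density genes moved in both directions in NOVA CLIP. Of 19 tested, 5 were called higher in MN, 3 lower and 11 not, with a median log2 fold change of 0.05. Kalrn, a guanine nucleotide exchange factor of dendritic spines, was the furthest up (1.58, adjusted p = 1.56e-12, edgeR) and Camk2a, a kinase abundant in dorsal horn and forebrain synapses, the furthest down (−1.99, adjusted p = 1.28e-06, edgeR). Of 18 glutamate receptor genes and partners tested, 8 were called higher, 3 lower and 7 not, with a median of 0.40. Grid1, a delta glutamate receptor, was the furthest up (0.96, adjusted p = 5.53e-09, edgeR) and Nlgn3, a neuroligin, the furthest down (−1.03, adjusted p = 4.01e-07, edgeR). These are whole-gene counts, to which the higher intronic share of MN reads applies as well.

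Over the 12 CLIP libraries, the non-member genes whose log2 CPM was most like the mean profile of the 9 members were Gpd2 (Pearson r 0.87), Cd47 (0.87), Fnip1 (0.86), Tubb4 (0.86) and Lrrn2 (0.86). The mean profile joins members called higher in MN with members called lower, so it need not resemble any of them. The libraries share their group means and depth, so these values are a description of 12 libraries only.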

How the data were processed

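Per the study's methods, the authors aligned CLIP reads to mm9 with Novoalign, collapsed duplicates and deposited each unique read as a line with a score; trimmed RNA-seq reads to 74 nt, mapped them with OLego, and deposited read counts and RPKM per gene and counts per junction and cassette exon. Here CLIP reads were counted by midpoint, on the sense strand, in GENCODE vM1 protein-coding genes (mm9). Events were placed on mm9 by exon ends, and all 18 member events matched the annotation. Genes passing filterByExpr were tested with edgeR 4.0.16 (TMM, quasi-likelihood, FDR 0.01 over all genes, FDR 0.1 for windows near exons) and DESeq2 1.42.0 as an alternative; cassette exons with Fisher's exact test (FDR 0.1, at least 10 junction reads per library; scipy 1.17.1). CPM used TMM-scaled totals. RPKM ratios added 0.1. Both tests were tested on simulated data. The study's replicates are biological by its design text. Same-numbered libraries of the 2 MN lines correlated at 0.05 to 0.19 and with WSC at −0.06 to 0.03, so numbers were not taken to pair samples, which needed every pair over 0.1. The sequencer was read from the read names. Intervals cover counting error only. Members and lists were chosen with earlier results of these data known. Named were all members, their exons with 10% to 90% inclusion or called, the extremes of each list and the 5 genes most alike. The authors' inclusion rates were not used. The individual values of some genes that the naming rule chose are not reported here.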

Additional observations from a re-analysis of the deposited data

Results flagged for a closer look

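Each member's CPM was checked in each group of 4 CLIP libraries for a library standing apart by Dixon's test. Of 27 groups, 5 were marked, where chance marks about 1 in 20. Homer1 was at 166 CPM in line #6 replicate 2 against 68.6 to 77.6 CPM in the rest of its group, a value from 11 reads. Homer1 was at 221 CPM in line #17 replicate 1 against 58.6 to 75.1 CPM, also from 11 reads. In WSC replicate 4, Homer1 was at 75.2 CPM against 80.3 to 81.0 CPM. Dlgap1 was at 1580 CPM in line #6 replicate 2 against 1016 to 1050 CPM, from 105 reads, and at 1424 CPM in line #17 replicate 2 against 1023 to 1082 CPM, from 172 reads. Both of these Dlgap1 libraries were run on the HISEQ1 sequencer, which no other library used, and the part of the sequencer was not tested.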

How the results depend on the processing

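The count of genes called between MN and WSC (2603) was 1074 on exonic reads alone and 768 on intronic reads alone, which also test fewer genes, and 1870 to 2939 when each library was left out in turn. With replicate number as a block (replicate block) it was 2096 and Shank2 lost its call (adjusted p = 0.0692, edgeR); no other member's call changed. The numbers were not taken to pair the samples, although same-numbered libraries of both MN lines share a sequencer and correlated at 0.157, 0.0538, 0.111 and 0.189. Between lines 0 genes were called, 0 to 3 when a library was left out. Windows near cassette exons gave 34 calls at a false discovery rate of 0.1, 17 with 200 nt of intron, 166 in HISEQ2 libraries only, and 9 to 53 when a library was left out. The count of member events with 10% to 90% inclusion (8) was 9 with exon body counts, 6 with at least 20 junction reads and 8 with either library left out; the median member RNA level was 10.4 RPKM with TMM scaling and 10.4 to 10.5 RPKM with 1 library. No deposited CLIP line was identical to another of its library, with the read name included. Reads that share a start position were kept, and their part differed between libraries. In WSC replicate 2, 3860630 of 6095995 reads had a distinct position, and in line #17 replicate 4, 773867 of 871804. With distinct positions only, 2065 genes were called between MN and WSC, and some member values changed, as given below.

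Signs turned in MN minus WSC for Dlg2 (−0.0598, introns), Dlgap1 (−0.45, exons) and Shank1 (0.21 on exons, 0.0408 on introns, 0.32 with distinct positions only). For Shank3 the value was −0.0149 with RLE factors, −0.18 without a filter, −0.19 on introns, −0.0811 with distinct positions, −0.11 with line #17 alone and −0.00866 with DESeq2. For Homer1 it was 0.11 with the block, 0.11 with line #6 alone and 0.0864 with DESeq2. With a library left out, Shank3 ran from −0.14 to 0.13 and Homer1 from −0.14 to 0.22. None of these turned values was called, and the cause was not tested. Line #6 minus line #17 under the block turned for Dlg2 (0.00052), Dlg3 (−0.0334) and Dlgap1 (0.0124). With a library left out it ran from −0.28 to 0.12 for Dlg1, −0.0406 to 0.0474 for Dlg2, −0.61 to 0.50 for Dlg3, −0.41 to 0.57 for Dlg4, −0.0455 to 0.46 for Shank3, −0.25 to 0.48 for Homer1 and −0.14 to 0.14 for Dlgap1.

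Dlg1 lost its call without a filter (adjusted p = 0.0206, edgeR) and with distinct positions (adjusted p = 0.0122, edgeR). Shank2 lost it with DESeq2 (adjusted p = 0.111, DESeq2) and line #17 alone (adjusted p = 0.207, edgeR). Without a filter Dlg3 (−0.83) and Shank1 (−0.44) were called, and the median of all genes was −0.47. Dlg3 was also called with RLE factors (adjusted p = 0.00738, edgeR), where that median was −0.06. Distinct positions and HISEQ2 libraries only were chosen after seeing the data.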

Other observations

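Genes of inhibitory synapses were also covered. Of 8 tested in NOVA CLIP, 1 was called higher in MN, 3 lower and 4 not, with a median log2 fold change of −0.27. Gphn, the scaffold gephyrin, was higher (0.65, adjusted p = 3.76e-06, edgeR). In WSC RNA these genes had a median of 38.6 RPKM, and the highest was Glrb, the glycine receptor beta subunit, at 178 ± 23.6 RPKM.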
